A study of Mus musculus with 2 samples.

Results

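The vascular endothelial growth factor (VEGF) system was described through 10 genes: the 5 ligand genes Vegfa, Vegfb, Vegfc, Vegfd and Pgf, the 3 receptor tyrosine kinase genes Flt1, Kdr and Flt4, and the 2 neuropilin co-receptor genes Nrp1 and Nrp2. They were chosen by gene symbol, without a threshold on their values, and all 10 were found in both libraries among the 43346 Ensembl genes quantified. The data were RNA-seq of whole hearts from healthy B6NCrl mouse embryos at embryonic day 15.5, in 2 libraries of 1 group with no treatment and no second genotype. Replicate 1 pooled hearts of 78 embryos and replicate 2 pooled hearts of 62 embryos, with both sexes mixed in each pool. Each library started from 10 ng of RNA longer than 200 nt with spike-in RNA added. The libraries held 41221435 and 38457396 expected counts over Ensembl genes. Each library mixes many embryos, so their spread says nothing of single animals. With 1 group there is no contrast to test, and the smallest p that an exact sign-flip test of 2 values allows is 0.5, so values are given with their spread and no p-value.

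VEGF ligands are secreted dimers that act mainly on endothelial cells. VEGF-A, the main driver of blood vessel growth, binds VEGFR-1 (the product of Flt1) and VEGFR-2 (Kdr), and most of its signal passes through VEGFR-2. Of the receptor kinases, VEGF-B and placental growth factor (Pgf) bind VEGFR-1 only. That receptor holds VEGF-A tightly with weak kinase activity and also exists as a secreted form without the kinase. VEGF-C and VEGF-D bind VEGFR-3 (Flt4), the receptor of lymphatic growth, and VEGF-C also binds VEGFR-2. Neuropilins hold both VEGFs and class 3 semaphorins beside the signalling receptors. In the fetal heart this system is known for the growth of the coronary vessels, the endocardium and the cardiac lymphatics.

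The tissue label was checked against marker genes. All 8 cardiomyocyte markers and all 10 general endothelial markers reached 1 TPM in both libraries, against 58.2% of protein-coding genes. Their median levels were 2897 TPM and 43.5 TPM. TPM, the transcripts of a gene per fixed total of all transcripts, divides counts by transcript length. Comparisons of levels between genes therefore rest on the lengths used. Markers of tissues outside the heart were also present and were higher in replicate 2. The summed level of 6 thymus markers was 6.54 TPM in replicate 1 and 70.0 TPM in replicate 2. It was 45.1 and 206 TPM for 6 liver markers, 146 and 351 TPM for 6 lung epithelium markers, and 11.1 and 53.5 TPM for 6 neuron and neural crest markers. The summed cardiomyocyte markers were lower in replicate 2, at 36511 against 30275 TPM, and none of the markers in these lists was at 0 counts in both libraries. In a bulk sample, fewer cells of a type and less RNA per cell cannot be told apart.

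Every one of the 10 genes reached 1 TPM in each library, against 58.2% of protein-coding genes. The order of mean levels was Vegfb, Nrp1, Kdr, Flt1, Vegfc, Pgf, Nrp2, Flt4, Vegfa and Vegfd, and it spanned from 116 to 4.46 TPM. Neighbours down to Vegfc and Pgf were set apart: the ranges of the libraries did not overlap, and neither did the authors' intervals around the posterior mean TPM. The sources used here do not state the confidence level of those intervals. From Pgf downwards no neighbours were set apart by that rule. Pgf, Nrp2, Flt4 and Vegfa overlapped from one to the next, and Vegfa and Vegfd had library ranges that did not overlap but intervals that did.

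**Figure D1:**
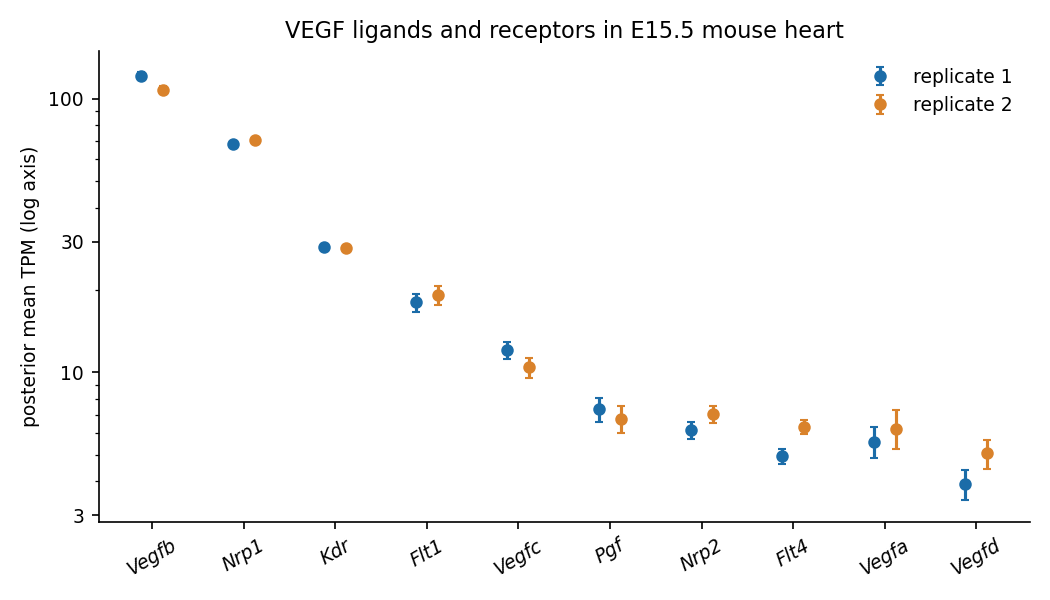
Posterior mean TPM (log axis) of the 10 VEGF ligand and receptor genes in replicate 1 (blue) and replicate 2 (orange), ordered by mean TPM, with the authors' deposited intervals as bars. Vegfb and Nrp1 stand above 60 TPM in both libraries, and the 5 genes from Pgf to Vegfd lie close together.

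Among the ligands, Vegfb was far the most abundant. Vegfb (ENSMUSG00000024962.9, chr19:6982473-6987651 of mm10, minus strand) encodes VEGF-B, a ligand known from the mouse for its abundance in heart muscle. It stood at 123 TPM in replicate 1 and 109 TPM in replicate 2 (116 ± 9.79 TPM, SD, n = 2), above 95.0% of protein-coding genes. It made up 81.1% and 79.6% of the summed TPM of the 5 ligands. Vegfb exceeded Vegfa 24.2-fold in replicate 1 and 19.7-fold in replicate 2, a mean log2 ratio of 4.42 ± 0.21 (SD, n = 2, pseudocount 0.1 TPM). Vegfb exceeded Vegfc 10.1-fold and 10.3-fold. These gaps were many times the spread between the libraries.

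Vegfa (ENSMUSG00000023951.12, chr17:46016993-46032369, minus strand), the ligand with the broadest role in vessel growth, stood at 5.09 TPM and 5.54 TPM (5.31 ± 0.318 TPM, SD, n = 2). That level lay above 54.5% of protein-coding genes, close to the middle of the ranking. Vegfa rested on 434 and 354 expected counts. Of these, 344.36 and 98.21 were assigned to transcript Vegfa-211, of 3324 bases in the files and 975 in GENCODE M21. The level of Vegfa and its ratios to other genes therefore depend on that length. Vegfa made up 3.36% and 4.04% of summed ligand TPM. Pgf (ENSMUSG00000004791.6, chr12:85166635-85177790, minus strand), a ligand of VEGFR-1 alone among the receptor kinases, stood at 7.43 and 6.84 TPM. Pgf was 1.46-fold above Vegfa in replicate 1 and 1.23-fold in replicate 2 per length. Without division by length the order of Pgf and Vegfa turned, at 358 against 434 expected counts in replicate 1 and 294 against 354 in replicate 2.

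Of the VEGFR-3 ligands, Vegfc was the higher in both libraries. Vegfc (ENSMUSG00000031520.5, chr8:54077606-54187096, plus strand) is required for the first lymphatic vessels in mice. It stood at 12.2 TPM and 10.6 TPM, from 708 and 548 expected counts. That level depends on a transcript of 1881 bases in the files, where GENCODE M21 gives 2449 bases. Vegfd (ENSMUSG00000031380.10, chrX:164373378-164402650, plus strand), whose mouse product binds VEGFR-3 and not VEGFR-2, was the lowest of the 10 genes, at 3.89 and 5.04 TPM. Vegfc exceeded Vegfd 3.15-fold in replicate 1 and 2.11-fold in replicate 2, a mean log2 ratio of 1.34 ± 0.40 (SD, n = 2). The direction was the same in both libraries, while the SD of the ratio was the largest among the 8 pairs of members compared.

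Kdr was the most abundant of the receptor kinases. Kdr (ENSMUSG00000062960.7, chr5:75932827-75978458, minus strand), which encodes the main signalling receptor of VEGF-A, stood at 29.1 TPM in each library, from 5475 and 4892 expected counts. Flt1 (ENSMUSG00000029648.9, chr5:147561604-147726011, minus strand), which encodes VEGFR-1, stood at 18.0 and 19.2 TPM with all its transcripts counted. Flt4 (ENSMUSG00000020357.3, chr11:49609263-49652739, plus strand), which encodes VEGFR-3, stood at 5.02 and 6.40 TPM. Kdr therefore exceeded Flt1 1.62-fold and 1.51-fold and Flt4 5.80-fold and 4.55-fold. Of the summed TPM of the 3 kinases, Kdr made up 55.8% and 53.2%, Flt1 34.5% and 35.1%, and Flt4 9.63% and 11.7%.

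The neuropilin pair was dominated by Nrp1. Nrp1 (ENSMUSG00000025810.8, chr8:128358604-128503363, plus strand), a co-receptor of VEGF-A and a semaphorin receptor, stood at 69.5 TPM and 71.8 TPM (70.7 ± 1.58 TPM, SD, n = 2), above 91.7% of protein-coding genes. In replicate 2 its deposited TPM of 71.77 lay above the upper bound of the authors' interval, at 71.6. In replicate 1 it was 69.53, beside an upper bound of 69.5. The interval belongs to the posterior mean TPM, of 68.3 and 70.4. Nrp2 (ENSMUSG00000025969.11, chr1:62703285-62818695, plus strand), a co-receptor for VEGF-C, stood at 6.21 and 7.12 TPM. Nrp1 exceeded Nrp2 11.2-fold and 10.1-fold, and it exceeded Kdr 2.39-fold and 2.47-fold. The summed TPM of the neuropilins was 75.7 and 78.9, above the 52.1 and 54.7 TPM of the 3 kinases together. The Nrp1 level depends on a transcript of 5907 bases in the files, where GENCODE M21 gives 3597 bases.

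The forms of 4 genes differ in what the protein can bind, and their transcripts were quantified apart. Of the 7 genes with several transcripts, 6 had the same leading transcript by deposited TPM in both libraries, against 90.5% of protein-coding genes with 2 or more transcripts, and Vegfa was the exception. Forms were assigned from the exon structure in GENCODE M21, in which 32 of the 35 transcripts have the length they have in the files. Intervals on shares below combine the authors' bounds on each transcript and are wider than those of any single transcript.

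**Figure D2:**
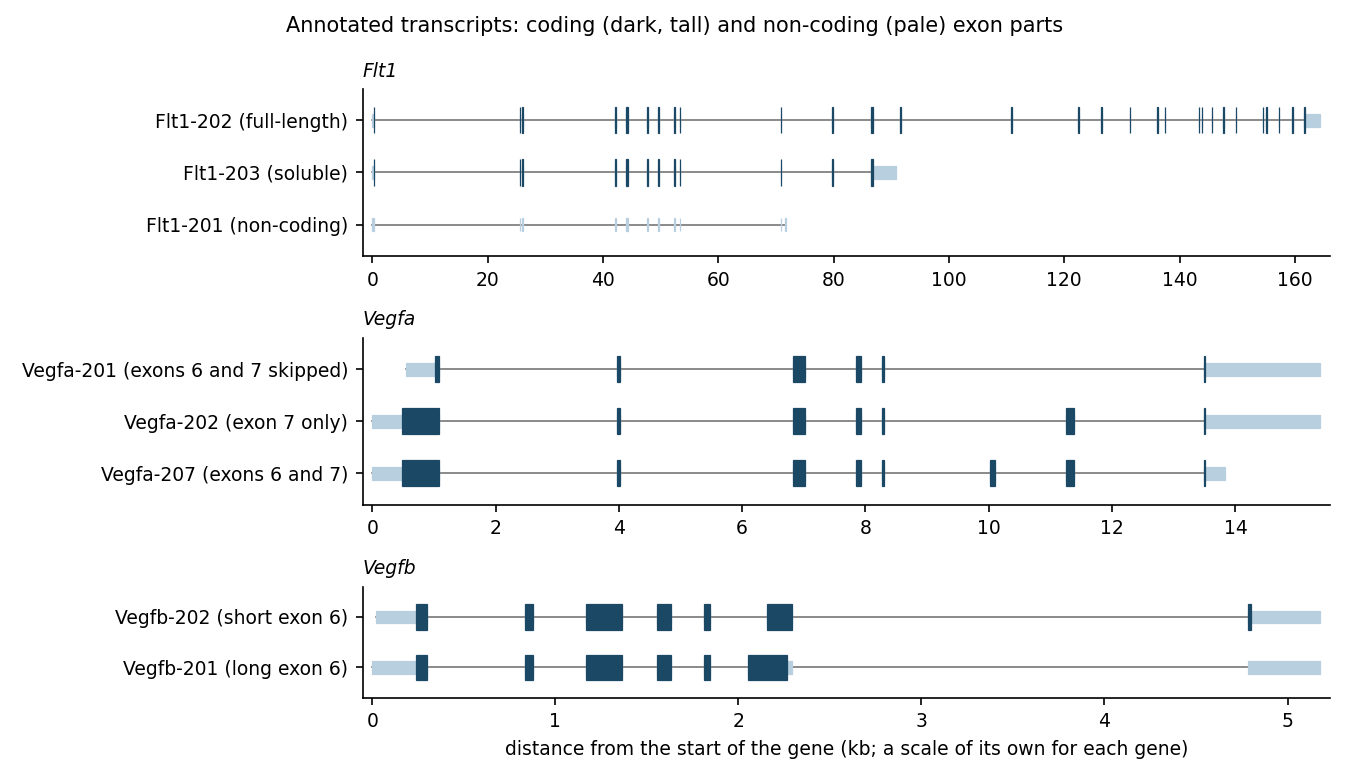
Exon maps of transcripts of Flt1, Vegfa and Vegfb from GENCODE M21, drawn to scale as distance in kb from the start of each gene, with coding parts dark and tall and other parts pale. Soluble Flt1 ends inside the intron after exon 13, about halfway along the gene. The coding parts of the Vegfa and Vegfb forms differ only near their 3′ end and, for Vegfa, in where they begin. The non-coding ends of the transcripts differ as well: Vegfa-207 stops at chr17:46018543, while Vegfa-201 and Vegfa-202 run on to chr17:46016993.

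Flt1 makes a full-length receptor of 1333 codons and a soluble one of 688 codons that share their coding exons up to exon 13. In the soluble form exon 13 runs on into the intron, which gives a short coding tail and a stop codon, so the membrane and kinase parts are missing. The stretches where the forms part are shown because the split between them is the finding for this gene. They are read on the minus strand of mm10 from the end of exon 13, with capitals for the intron-derived tail of 95 bases (chr5:147639130-147639224, stop codon included) in the soluble form and for the first 90 bases of exon 14 (chr5:147634434-147634523) in the full-length form.
Flt1 soluble: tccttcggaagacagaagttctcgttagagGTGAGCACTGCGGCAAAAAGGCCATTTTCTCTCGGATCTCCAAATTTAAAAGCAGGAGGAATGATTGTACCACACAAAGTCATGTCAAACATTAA
Flt1 full-length: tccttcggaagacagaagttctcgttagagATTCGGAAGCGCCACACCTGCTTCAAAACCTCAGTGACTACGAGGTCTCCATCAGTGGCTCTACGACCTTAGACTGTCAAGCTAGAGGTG

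Full-length Flt1 was the higher of the coding forms in both libraries. The full-length transcript stood at 7.11 TPM in replicate 1 and 8.56 TPM in replicate 2. The soluble transcript stood at 4.00 and 4.01 TPM. Soluble Flt1 was thus 36.0% of coding Flt1 in replicate 1 (interval 32.4 to 39.4%) and 31.9% in replicate 2 (interval 28.6 to 35.3%), a mean of 34.0 ± 2.90% (SD, n = 2). The intervals of the libraries overlapped, so no difference in that split could be told between them.

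A large part of Flt1 TPM fell on neither receptor form, though a smaller part of its expected counts did. Processed transcripts, annotated as non-coding, held 6.90 TPM (38.3% of the gene's TPM) in replicate 1 and 6.66 TPM (34.6%) in replicate 2. Most of that was a single transcript, at 5.87 and 5.04 TPM. Its first 11 exons lie where those of the receptor forms do, and it ends in a last exon of 241 bases (chr5:147654269-147654509). This transcript has 2049 bases, against 6895 for the full-length form and 6292 for the soluble one. It held 371.97 of 2752 expected counts of Flt1 in replicate 1 and 284.97 of 2703 in replicate 2. Its share is therefore smaller without division by length. Across all protein-coding genes with 2 or more transcripts the median non-coding share was 7.44% and 7.84%, and Flt1 lay above 82.0% of them. Counted against all Flt1 TPM, the soluble form was 22.2% and 20.9%. Full-length Flt1 alone stood near the level of Pgf, and Kdr at 29.1 TPM was several times above it in each library.

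Vegfb makes a form that binds heparan sulfate and stays near the cell, and a freely soluble form. The choice lies in the start of exon 6. With the upstream start (transcript Vegfb-201) 101 further bases are included (chr19:6985496-6985596), which shifts the reading frame of what follows and gives the soluble form. With the downstream start (Vegfb-202) they are skipped, which gives the heparan sulfate-binding form. The stretches below, on the minus strand of mm10, give exon 5 and the start of exon 6, with capitals for the bases that only the long exon 6 holds. They are shown because both were used at nearly equal levels.
Vegfb long exon 6: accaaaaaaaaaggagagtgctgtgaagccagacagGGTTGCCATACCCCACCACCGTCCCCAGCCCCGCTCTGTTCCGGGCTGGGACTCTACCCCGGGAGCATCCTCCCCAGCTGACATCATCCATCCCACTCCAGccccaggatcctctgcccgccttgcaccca
Vegfb short exon 6: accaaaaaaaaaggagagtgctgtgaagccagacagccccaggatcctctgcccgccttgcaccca

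The short exon 6 was somewhat the higher in both libraries. It stood at 66.8 and 57.5 TPM, and the long exon 6 stood at 52.9 and 48.8 TPM. The long form was 44.2% of coding Vegfb in replicate 1 (interval 39.8 to 49.3%) and 45.9% in replicate 2 (interval 40.7 to 51.2%). The interval of replicate 1 lay below an even split, while that of replicate 2 included it. A retained-intron transcript added 2.71% and 2.73% of Vegfb TPM.

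Vegfa forms differ in exons 6 and 7, which carry the basic stretches that bind heparan sulfate, and exon 7 also contributes to binding neuropilin. Exon 6 has 72 bases (chr17:46022277-46022348) and exon 7 has 132 bases (chr17:46020991-46021122). In the lines below, read on the minus strand of mm10 from exon 5 to the stop codon in the last exon, capitals mark exons 6 and 7. They are shown to make plain which bases a read must cover to tell the forms apart.
Vegfa exons 6 and 7: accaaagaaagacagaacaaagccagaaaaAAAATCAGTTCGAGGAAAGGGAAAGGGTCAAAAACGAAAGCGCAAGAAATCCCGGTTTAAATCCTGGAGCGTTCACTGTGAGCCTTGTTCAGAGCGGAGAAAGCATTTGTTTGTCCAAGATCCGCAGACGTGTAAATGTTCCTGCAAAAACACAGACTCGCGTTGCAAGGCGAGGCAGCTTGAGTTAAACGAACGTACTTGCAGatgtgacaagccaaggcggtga
Vegfa exon 7 only: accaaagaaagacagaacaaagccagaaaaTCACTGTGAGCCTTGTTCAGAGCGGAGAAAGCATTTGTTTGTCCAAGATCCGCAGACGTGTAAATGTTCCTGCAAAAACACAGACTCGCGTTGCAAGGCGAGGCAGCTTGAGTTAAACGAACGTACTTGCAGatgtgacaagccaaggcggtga
Vegfa exons 6 and 7 skipped: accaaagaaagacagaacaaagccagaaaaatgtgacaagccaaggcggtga

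Forms that skip both exons, which encode the diffusible VEGF-A, held 4.06 TPM (79.8% of the gene's deposited TPM, interval from 26.8% upwards) in replicate 1 and 2.92 TPM (52.7%, interval 11.9 to 99.6%) in replicate 2. By posterior mean the share was 62.4% and 42.6%. Both intervals included an even split, so a majority was not established in either library. The form with exon 7 only, which encodes the form with intermediate binding to heparan sulfate, was at 0 TPM in replicate 1 and 0.60 TPM in replicate 2. The forms with both exons were at 0 TPM and 0.520 TPM. Intron-retaining transcripts held 1.03 TPM (20.2%) and 1.5 TPM (27.1%). Over transcripts of any kind that hold exon 7, the TPM was 1.03 in replicate 1 and 2.28 in replicate 2.

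The split of Vegfa could not be read more closely from these intervals. The interval on the share of coding Vegfa with exon 7 reached 50.3% in replicate 1 and 74.2% in replicate 2, and the posterior mean gave 16.6% and 33.2% in place of the deposited 0% and 27.7%. The leading transcript was Vegfa-211 in replicate 1 (64.66% of Vegfa TPM, 18.95% in replicate 2) and Vegfa-201 in replicate 2 (33.72%, 15.17% in replicate 1). Of the others with at least 10% in a library, Vegfa-202, the exon 7 form, was at 0% and 10.86%, and the intron-retaining Vegfa-205 and Vegfa-206 were at 13.09% and 5.42% in replicate 1 and at 8.21% and 11.22% in replicate 2. Vegfa-211 has 3324 bases in the files and 975 in GENCODE M21, so its assignment to the skipped form rests on a structure other than the one quantified. It carries most of the skipped form in replicate 1.

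Nrp2 has the ends a and b, which give the receptor different membrane and cytoplasmic parts. Transcripts with the a end held 3.44 and 3.73 TPM, and those with the b end held 2.13 and 2.84 TPM. The b end was 38.2% of coding Nrp2 in replicate 1 (interval 17.9 to 86.6%) and 43.2% in replicate 2 (interval 23.7 to 74.1%). Neither interval excluded an even split. The leading transcript, with the a end, took 41.73% and 41.64% of Nrp2 TPM, and the leading one of the b end took 26.34% and 32.99%. By posterior mean the order turned, with 21.67% and 28.21% for that a-end transcript and 25.66% and 32.17% for that b-end one. A further a-end transcript was listed at 0% by deposited TPM and held 18.05% and 12.04% by posterior mean. An a-end transcript with an added exon of 51 bases (chr1:62812534-62812584) took 12.16% and 10.80%, and an intron-retaining one took 10.47% and 7.63%.

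The other genes were close to a single form in these files. A retained-intron transcript took 1.10% and 0.997% of Kdr TPM, and a processed transcript 2.40% and 3.12% of Flt4 TPM. The coding transcript held the rest, and 100% of Vegfd TPM in each library. Vegfc, Pgf and Nrp1 each had 1 transcript in the files. Soluble forms of those genes that the annotation does not hold were not measured apart.

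**Figure D3:**
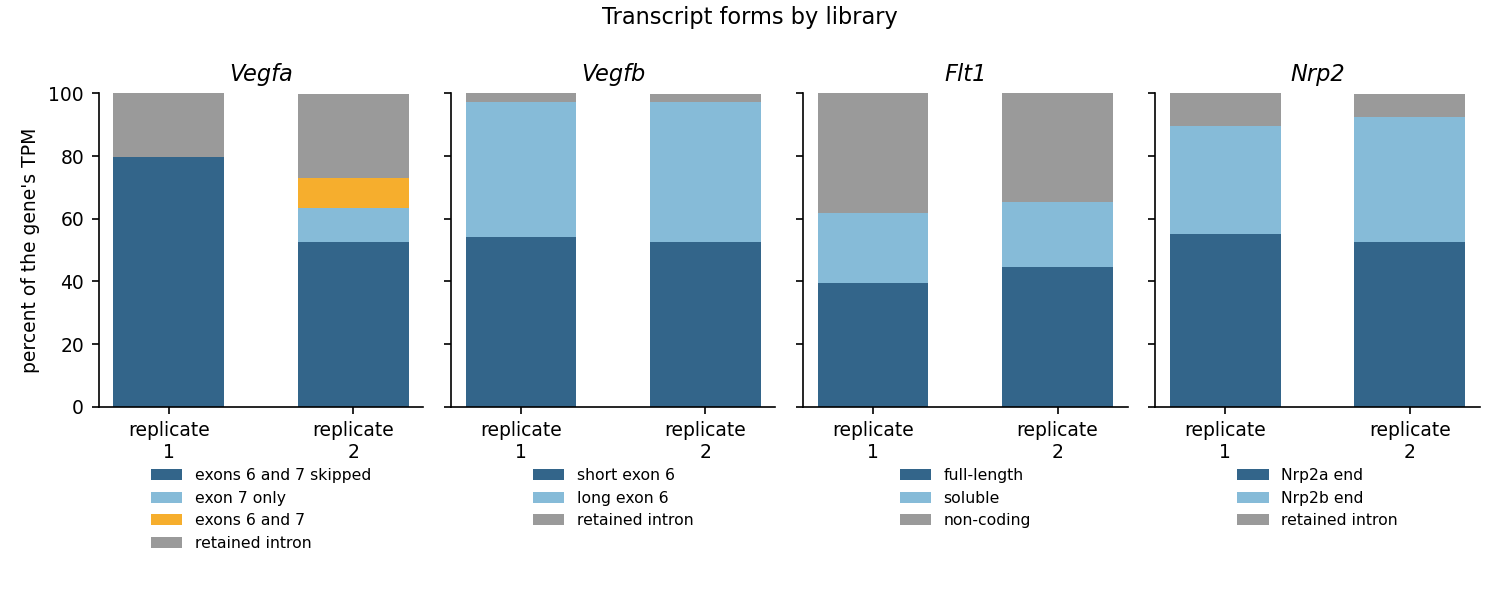
Percent of each gene's TPM held by each transcript form of Vegfa, Vegfb, Flt1 and Nrp2 in replicate 1 and replicate 2, as stacked bars that sum to 100%. The splits of Vegfb, Flt1 and Nrp2 look alike in the libraries, while the coding Vegfa forms with exon 7 are at 0% of deposited TPM in replicate 1 and above 0 in replicate 2, with intervals that overlap widely and with exon 7 also in intron-retaining transcripts of both.

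Between the libraries, 0 of the 10 genes passed 1.5-fold, where 16.0% of the 17054 genes with 10 or more counts in each library did (11.2% higher and 4.76% lower in replicate 2). Differences are log2 ratios of expected counts, replicate 2 over replicate 1, scaled by edgeR's TMM factor, with 95% exact intervals that cover counting error only. The lowest were those of the ligands Vegfc at -0.44 (-0.61 to -0.28), Vegfb at -0.41 (-0.47 to -0.34), Vegfa at -0.37 (-0.57 to -0.16) and Pgf at -0.36 (-0.58 to -0.13). The receptors lay nearer to 0, with Kdr at -0.23 (-0.29 to -0.18), Nrp1 at -0.19 (-0.23 to -0.15), Flt1 at -0.10 (-0.18 to -0.02), Nrp2 at -0.05 (-0.17 to 0.07) and Flt4 at 0.11 (-0.01 to 0.24). Vegfd, the fifth ligand, was the highest, at 0.14 (-0.11 to 0.39). On deposited TPM this order held in part only. Vegfb, Vegfc and Pgf stayed below every receptor, but Vegfa at 0.12 lay above Kdr at 0.00, Nrp1 at 0.05 and Flt1 at 0.09.

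On that scale 8 of the 10 genes were lower and 2 higher in replicate 2, with a median of -0.21 beside -0.02 over all genes, but with scaling by total gene counts 6 were lower and 4 higher, and on deposited TPM 3 were lower, 6 were higher and Kdr was equal. Scaled by spike-ins, all 10 were lower and all 10 passed 1.5-fold, with a median of -1.13 beside -0.93 over all genes. The median of all genes moved with the scaling too, to 0.16 with total counts and 0.21 on TPM. Each scaling of counts shifts every gene by the same amount, so the gap between members and all genes is fixed across them. On TPM, a different measure, the median of the members was 0.07, also below that of all genes. Vegfa was lower in replicate 2 on counts and higher on TPM (log2 ratio 0.12), and its effective length, by which TPM is divided, was 2628 bases in replicate 1 and 2203 in replicate 2, where another transcript led. Intervals around the posterior mean TPM did not overlap for 3 of the 10 genes, Vegfb, Vegfd and Flt4, against 43.3% of all genes. The markers that moved between the libraries stand above. The median log2 ratio was -0.45 for the 8 cardiomyocyte markers and 0.01 for the 10 endothelial markers. Their part in the members' differences was not tested.

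**Figure D4:**
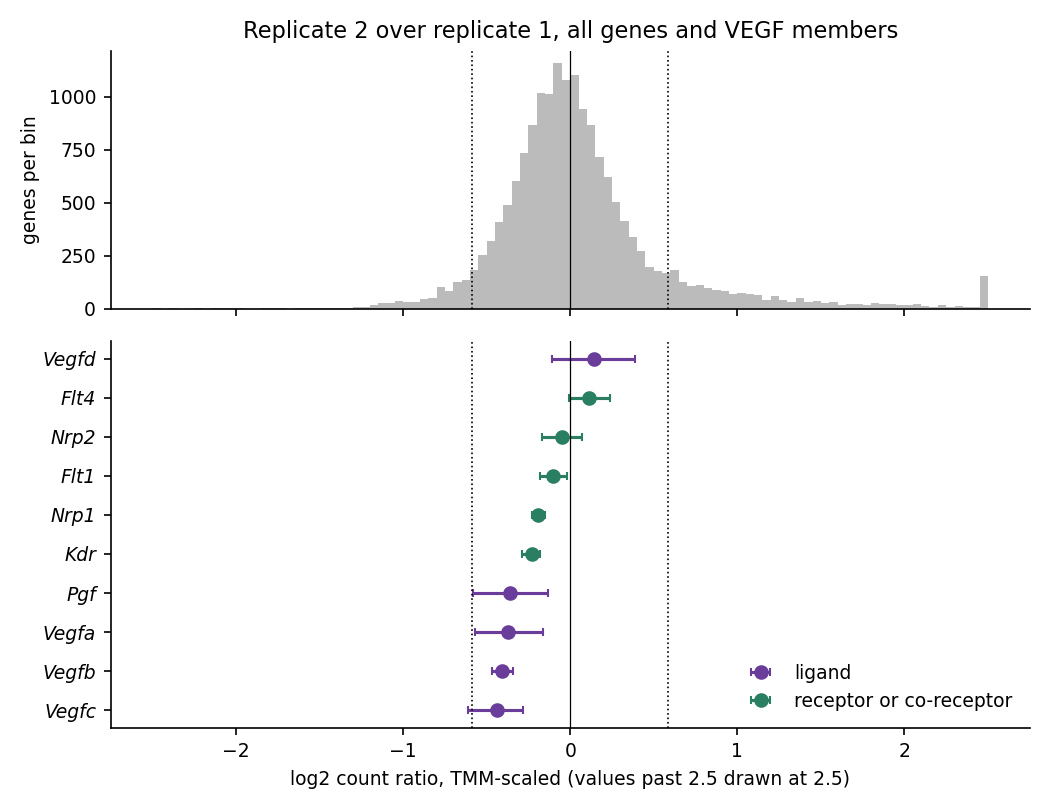
TMM-scaled log2 count ratio of replicate 2 over replicate 1 for all 17054 genes with 10 or more counts in each library (histogram, above) and for the 10 VEGF genes with 95% counting intervals (below; ligands purple, receptors and co-receptors green). Dotted lines mark 1.5-fold, and all 10 points lie between them, with 4 of the 5 ligands below every receptor on this scale of counts.

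The genes that act around the ligands and receptors were then listed by role. For the lists that follow, the shares over all genes are 58.2% of protein-coding genes at 1 TPM in both libraries and 16.0% past 1.5-fold. No list was tested against these shares. VEGF-C and VEGF-D are made as precursors and cut by proteases. Of 7 genes for that step, 6 reached 1 TPM in both libraries and 0 passed 1.5-fold, and the median level was 8.71 TPM beside 3.62 TPM over all protein-coding genes. Ctsd, the lysosomal protease cathepsin D, was the highest at 365 ± 56.5 TPM (SD, n = 2). Ccbe1, the secreted cofactor needed in mice to activate VEGF-C, was the lowest, at 0.590 and 0.760 TPM. It rested on 47 and 68 expected counts, so it was detected at a low level in both.

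Of 18 genes for receptor partners and modulators, 16 reached 1 TPM in both libraries. Their median was 9.96 TPM. Gipc1, whose product binds the tail of neuropilin 1, was the highest at 104 and 115 TPM. Sema3g, a class 3 semaphorin that signals through neuropilin 2, was the lowest, at 0.690 and 0.490 TPM. Sema3g was also the 1 gene of this list past 1.5-fold, 1.65-fold lower in replicate 2 from 99 and 63 expected counts.

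Of 24 signalling genes below the receptors, 23 reached 1 TPM in both libraries, against 58.2% of protein-coding genes. The median was 28.7 TPM. Rac1, a small GTPase of cell migration, was the highest at 194 and 226 TPM. Sh2d2a, an adaptor that binds VEGFR-2 and is also known from T cells, was the lowest, at 0.300 TPM in replicate 1 and 3.11 TPM in replicate 2. It was the 1 gene of the list past 1.5-fold, 8.33-fold higher in replicate 2. The thymus markers, at 6.54 and 70.0 TPM in sum, moved the same way, and their part in the Sh2d2a value was not tested.

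Vegfa is a textbook target of the oxygen-sensing factors. All 12 genes listed for that control reached 1 TPM in both libraries. Their median was 20.7 TPM, against the 5.09 and 5.54 TPM of Vegfa itself. Bnip3, a mitochondrial target of the same factors, was the highest at 205 and 154 TPM. It was the 1 gene of the list past 1.5-fold, 1.58-fold lower in replicate 2. Epas1, the subunit HIF-2α found in endothelium, was the lowest at 5.80 and 6.59 TPM.

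Of 10 genes known to be induced by VEGF in endothelial cells, 9 reached 1 TPM in both libraries and 0 passed 1.5-fold. The median was 9.37 TPM. Rcan1, an inhibitor of calcineurin that is also made by heart muscle, was the highest at 78.0 and 69.1 TPM. Egr3, an immediate-early transcription factor, was the lowest at 0.210 and 0.10 TPM. With 9 and 4 expected counts, Egr3 was too shallow for a ratio between the libraries.

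The receptors stood beside their endothelial setting as follows. The general endothelial markers ranged from Erg, an endothelial transcription factor, at 5.62 ± 1.67 TPM to Egfl7, a secreted endothelial protein, at 147 ± 21.5 TPM (SD, n = 2). Kdr at 29.1 TPM lay below their median of 43.5 TPM, and Flt1 at 18.6 TPM lay lower still. All 7 lymphatic markers reached 1 TPM in both libraries, from Reln at 1.29 TPM to Ccl21a at 40.8 TPM, with a median of 13.6 TPM beside 5.71 TPM for Flt4. All 6 endocardial markers did too, from Hapln1, a cartilage link protein of the cardiac jelly, at 4.29 TPM to Plvap, a protein of endothelial diaphragms, at 81.5 TPM. Several of these markers are also made by other cells of the heart, so the lists describe the setting and do not place the receptors in a cell type.

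Of 6 coronary and capillary markers, 3 passed 1.5-fold between the libraries, 2 lower and 1 higher in replicate 2. Over all 17054 genes compared, 16.0% passed in either direction. Of the same 6 markers, 5 reached 1 TPM in both libraries, against 58.2% of protein-coding genes. Fabp4, a fatty acid binding protein of capillary endothelium, was the highest, at 264 TPM in replicate 1 and 153 TPM in replicate 2, and was 2.00-fold lower in replicate 2. Cd36, a fatty acid transporter, was 1.61-fold lower, and Rgcc, a cell cycle regulator, was 2.03-fold higher. Car4, a carbonic anhydrase of mature capillaries, was the lowest at 0.510 and 0.750 TPM. Fabp4, Cd36 and Rgcc are not particular to endothelium, and the tissue markers higher in replicate 2 stand beside them untested.

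**Figure D5:**
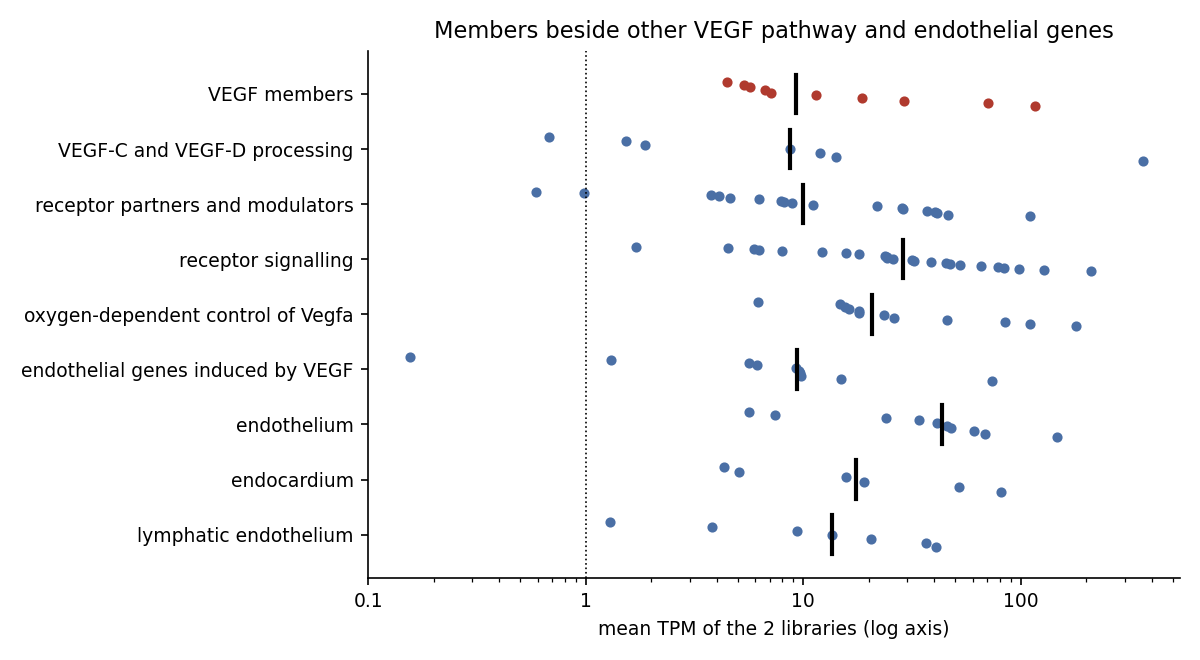
Mean TPM of the 2 libraries (log axis) for each gene of the VEGF family (red) and of 8 lists of related pathway and endothelial genes (blue), with the median of each list as a black bar and 1 TPM as a dotted line. The VEGF family has a median of 9.28 TPM, below the medians of the receptor signalling, oxygen control and endothelium lists.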

How the data were processed

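Genes and transcripts were quantified by the authors on mm10 with GENCODE M4, per the file headers. The sources used here name no aligner, quantifier or use of strand. Expected counts, as deposited, are reads estimated per gene or transcript with no normalization. The deposited TPM scale counts per effective length over all features, spike-ins included. The deposited interval bounds, treated as a score, belong to the posterior mean TPM, and the deposited percent is a transcript's share of its gene's TPM. The labels say total RNA, while the linked kit manual primes with oligo(dT), and which holds is not settled here.

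Symbols and exon structures came from GENCODE M21 on the same build, which matched 42462 of the genes, and sequences from its transcripts. Of the genes sharing exon bases with the members only Mir1903 (80 bases of Nrp1, 0 counts) was found. Expected counts were rounded and scaled with edgeR 4.0.16 (TMM, R 4.3.3), without 26248 short features and 97 spike-ins. Spike-ins took 1.58% and 3.12% of counts. The scaling was tested on simulated data. The members and gene lists were chosen with earlier results of these data known. All 10 members are named, and from each list the genes with the highest and lowest mean TPM, up to 5 past 1.5-fold, and those at 0 counts. Alternatives were other scalings, pseudocounts, thresholds and forms of TPM, and leaving out each library.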

Additional observations from a re-analysis of the deposited data

How the results depend on the processing

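No paired analysis was possible because there is only 1 group. No library could be left out of the comparison between the libraries. Leaving out each replicate in turn left 10 members at 1 TPM or more, and gave a range of 79.6 to 81.1% for Vegfb among ligand TPM, 4.28 to 4.57 for log2 Vegfb over Vegfa, 0.60 to 0.69 for Kdr over Flt1, 3.32 to 3.46 for Nrp1 over Nrp2, 1.06 to 1.63 for Vegfc over Vegfd, 20.9 to 22.2% for soluble Flt1 of all Flt1 TPM, 0 to 20.2% for coding Vegfa with exon 7 and 52.7 to 79.8% for Vegfa with both exons skipped. With a threshold of 10 TPM, 5 of the 10 members passed in both libraries, and 9 with 5 TPM. Without division by length, Vegfb was 70.8% of the ligands, log2 Vegfb over Vegfa was 3.31, Kdr over Flt1 0.92, Nrp1 over Nrp2 3.50, Pgf over Vegfa -0.27 (0.42 per length) and soluble Flt1 27.9%. A pseudocount of 1 TPM gave 4.21 for Vegfb over Vegfa and 3.23 for Nrp1 over Nrp2. Over protein-coding transcripts only, soluble Flt1 was 34.0% and Vegfa with both exons skipped 86.1%. Scaled by spike-ins, all 10 members and 14402 of all genes passed 1.5-fold, against 0 and 2727 with TMM, and the median of all genes shifted by -0.92. All 10 members were then lower in replicate 2. With no filter on low counts 9071 genes passed, and 1157 passed 2-fold. With 2 libraries, a value without either one always lies within 1 SD of their mean, so those ranges say nothing of stability. Of the other 45 alternatives for these comparisons, 31 lay within 1 SD of the main value, or within 1.5 times of a count, and the 14 that moved are given here. For single members and the other pairs and forms, 44 of 82 alternatives lay within the spread or the counting interval, 37 moved and 1 reversed, Pgf over Vegfa. The intervals on the Vegfa and Nrp2 forms were wide, and the part of depth in that was not tested.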

Other observations

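RNA-binding and RNA-processing factors known to act on the forms or the stability of Vegfa and Flt1 transcripts were well expressed. All 12 of those listed reached 1 TPM in both libraries and 0 passed 1.5-fold. Their median was 87.6 TPM. Srsf2, a splicing factor of the SR family, was the highest at 398 and 429 TPM. Zfp36, which promotes the decay of transcripts with AU-rich elements, was the lowest at 15.9 and 16.8 TPM. The median log2 ratio of the list between the libraries was -0.15, beside -0.02 over all genes.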
